A study of Mus musculus with 42 samples.

Results

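Immediate early genes are the genes that cells switch on first after a stimulus, before any new protein is made, and 10 of them were followed here in macrophages of aged and young mice around the clock. They were taken by name as Fos, Fosb, Jun, Junb, Jund, Egr1, Atf3, Ier2, Ier3 and Nr4a1, and they are 10 of the 47643 genes in the deposited tables. All 10 had a row in both tables, and all 10 were among the 12109 genes kept at a mean of at least 10 reads after rescaling.

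The mice were of the C57BL/6 strain, and no other allele or treatment was given for any group. Aged mice were 18-20 months old and young mice 2-3 months old. Macrophages were harvested at zeitgeber time (ZT) 0, 4, 8, 12, 16, 20 and 24 h, where ZT0 is by convention lights on. Each of the 14 groups had 3 libraries, 21 for each age, and the labels do not say whether these came from separate animals, so that p-values measure only the spread between libraries. RNA was read from its 3′ ends with the QuantSeq kit, in which a transcript gives a read near its end whatever its length.

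AP-1 is a pair of leucine zipper proteins, usually a member of the Fos family bound to a member of the Jun family, and it binds the AP-1 site and, with ATF relatives, the cyclic AMP response element. EGR1 is a zinc finger factor that the serum response factor and the ERK kinases switch on within minutes. In macrophages these factors are known for the first transcriptional answer to growth factors, to microbial products and to attachment, and the same transcripts are known to respond to the handling of tissue and the isolation of cells. Their messenger RNAs are short lived.

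Libraries held 4864402 to 15587030 reads in genes in aged mice (median 8159784) and 7433159 to 13574542 in young mice (median 9847012). The 8 macrophage markers checked were all measured, with a summed level of 179991.7 to 318011.9 rescaled reads in aged libraries and 224397.8 to 338043.4 in young ones. The 7 B cell markers summed to 4412.4 to 18410.0 in aged libraries and 4597.9 to 8350.1 in young ones, and 7 of 7 were called higher in aged mice. Of the 6 T cell markers tested, 4 were called higher in aged mice, and the sums of all 7 were 84.9 to 1230.3 in aged libraries and 63.6 to 292 in young ones. Sums of the 6 mast cell markers overlapped, at 370 to 1946.6 in aged libraries and 534 to 1944.2 in young ones, with 1 of 6 called lower in aged mice. Both NK cell markers tested were called higher in aged mice, and 2 of 4 dendritic cell markers lower. Of the 8 macrophage markers 1 was called higher and 2 lower. Of 6 markers of resident peritoneal macrophages 2 were called higher and 2 lower. Their sums overlapped, at 46494.4 to 96851.2 in aged libraries and 50302.1 to 80804.4 in young ones. Of the 3 neutrophil markers tested 1 was called higher and 1 lower. The 6 mesothelial and stromal markers summed to 24.9 to 108 in aged libraries and 0 to 25.6 in young ones, and the 1 tested was called higher in aged mice. Of the 4 eosinophil markers, 1 was at 0 in all 42 libraries. In such bulk samples fewer cells of a type and less RNA per cell cannot be told apart.

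Promoter windows from RefSeq (GRCm38.p6, 250 bases before to 50 after the start RefSeq gives) were at hand for 8 of the 10 genes. The starts of 7 lay within 100 bases of a transcript start in GENCODE M21, while that of Jund lay upstream of the annotated gene (at -1210 bases), so its window was left out. The Nr4a1 and Atf3 windows belong to transcripts that start 12577 and 34706 bases inside the annotated gene. Capital letters mark the searched motifs found, on either strand. The Fos, Nr4a1 and Ier3 windows are shown because Fos was the Fos family gene called over times in young mice, and because Nr4a1 and Ier3 were, of the 10, the genes most like Egr1 and Junb over the aged libraries.
Fos, chr12:85473640-85473939, plus strand: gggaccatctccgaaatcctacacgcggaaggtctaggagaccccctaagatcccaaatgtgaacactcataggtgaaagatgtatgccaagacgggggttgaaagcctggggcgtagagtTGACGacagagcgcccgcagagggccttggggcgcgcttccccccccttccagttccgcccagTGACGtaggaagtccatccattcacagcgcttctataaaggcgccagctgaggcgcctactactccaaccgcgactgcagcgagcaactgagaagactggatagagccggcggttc
Nr4a1, chr15:101266596-101266895, plus strand: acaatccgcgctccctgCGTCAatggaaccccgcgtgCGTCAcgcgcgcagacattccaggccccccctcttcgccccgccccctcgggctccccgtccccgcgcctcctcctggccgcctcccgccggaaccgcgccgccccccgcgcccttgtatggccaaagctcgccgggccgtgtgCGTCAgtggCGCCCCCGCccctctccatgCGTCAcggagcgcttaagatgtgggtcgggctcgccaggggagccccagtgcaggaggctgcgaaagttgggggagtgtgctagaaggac
Ier3, chr17:35821463-35821762, plus strand: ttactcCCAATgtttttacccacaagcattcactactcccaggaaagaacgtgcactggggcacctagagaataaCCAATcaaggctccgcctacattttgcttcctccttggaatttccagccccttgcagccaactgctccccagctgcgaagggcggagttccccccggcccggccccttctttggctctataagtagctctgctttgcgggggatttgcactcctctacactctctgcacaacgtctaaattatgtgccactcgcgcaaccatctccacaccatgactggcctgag

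The capitals in Fos are the letters TGACG, the core of the cyclic AMP response element, which begin at positions -129 and -66 from the RefSeq start. In Nr4a1 the same letters stand on the other strand as CGTCA at 4 places, starting at -233, -213, -69 and -40, and a match to the Egr site GCGNGGGCG starts at -60. The capitals in Ier3 are CCAAT boxes starting at -244 and -175. The letters TGACG were found in 5 of 7 windows (Atf3, Fosb, Junb, Fos and Nr4a1), against 20.8% of 32851 windows of the same length over all genes. The windows over all genes were not checked for their starts, and the Jund window that was left out held no searched motif. CCAAT was found in 4 of 7 (Atf3, Jun, Junb and Ier3), against 37.4%, and the Egr site in 2 of 7 (Fosb and Nr4a1), against 5.55%. The full element TGACGTCA, which holds TGACG, the AP-1 site TGANTCA, the E-box CACGTG and the CArG box of the serum response factor were in 0 of 7 windows, against 1.79%, 7.81%, 7.15% and 1.63% of all windows. A match is a run of letters only, and a window without one says nothing of sites elsewhere.

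Over the whole day, Egr1, Jun, Jund and Junb were higher in macrophages of aged mice and Atf3 was lower. Egr1 led with a fold change of 1.46, and the 3 Jun family genes were 1.14 to 1.21 times the level in young mice. Fos and Fosb, their dimer partners, did not pass the test, nor did Nr4a1, Ier2 or Ier3. In the limma test with Benjamini-Hochberg adjustment over all 12109 genes, 5 of 10 genes passed an adjusted p of 0.05, against 23.7% of all genes. Of these, 4 were higher, against 12.0% of all genes, and 1 was lower, against 11.7%. The median log2 difference, aged minus young, was 0.11 over the 10 genes and 0.00 over all genes.

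**Figure D1:**
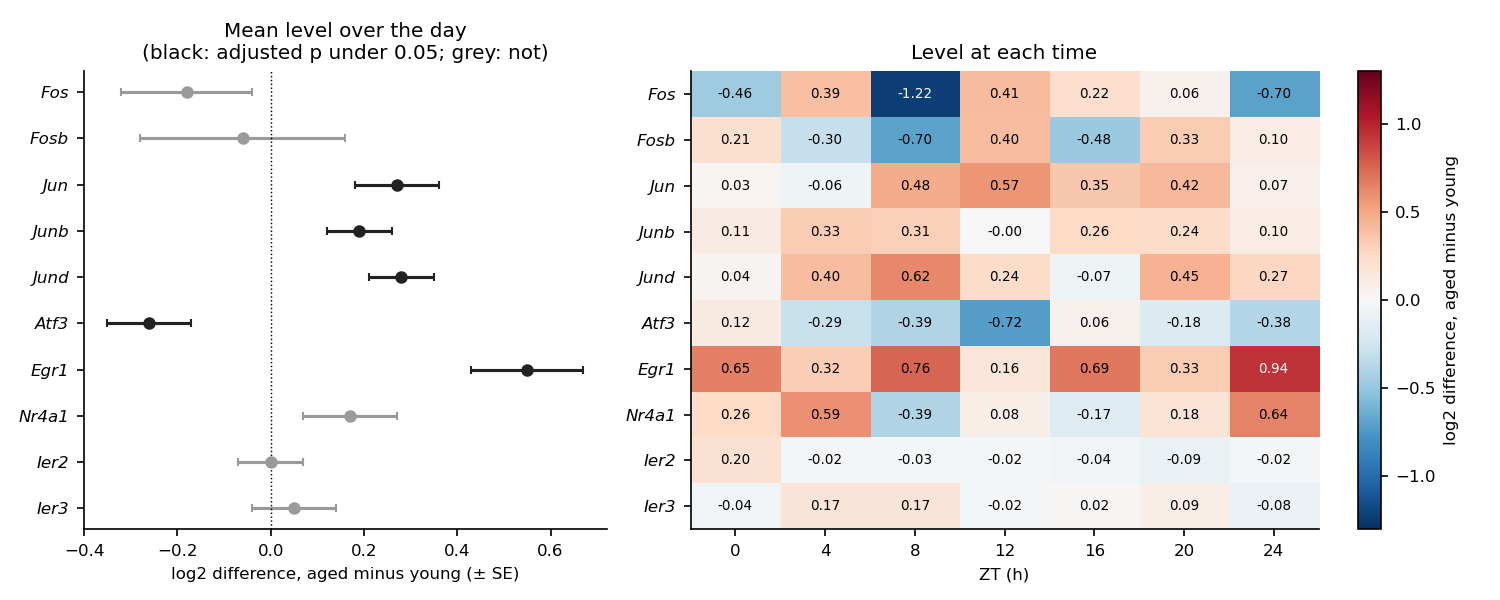
Left, log2 difference in level over the day, aged minus young, for each gene (points, bars are the standard error); right, the log2 difference at each zeitgeber time in hours as a colour and a number. Egr1, Jun, Junb and Jund lie right of 0 and Atf3 left of it among the genes past the threshold, and Fos at ZT8 has the lowest single-time value of -1.22.

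Of the Jun family, Jun (chromosome 4, 95049034-95052222, minus strand of GRCm38, as for all positions here) encodes the classical partner of FOS and can also pair with itself. Jun had 447 to 1128.2 rescaled reads in the 21 aged libraries (median 657), against 416 to 733 in the 21 young libraries (median 553). Its mean was 690 ± 201 in aged mice and 557 ± 81.9 in young mice (SD, n = 21 each). The ranges overlapped, and the highest aged libraries lay above every young one. The log2 difference was 0.27 ± 0.09 (SE; adjusted p = 0.0177), and the aged mean was higher at 6 of 7 times.

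Junb (chromosome 8, 84974484-84978718, minus strand), which restrains or replaces JUN in AP-1 dimers depending on the gene, had 3506.1 to 6831.0 rescaled reads in aged libraries (median 4775.9), against 3302.8 to 5519.9 in young libraries (median 3963.8). The groups overlapped widely, and the aged mean was higher at 7 of 7 times. Its mean was 4882 ± 1055.5 in aged mice and 4229 ± 709 in young mice (SD, n = 21 each), a log2 difference of 0.19 ± 0.07 (adjusted p = 0.0402). Leaving out 1 library at a time ended this call for 21 of 42 libraries, with adjusted p of up to 0.0745: aged ZT0 replicate 2, ZT4 replicate 1, ZT8 replicate 1, ZT20 replicate 1 and replicates 1 and 3 of ZT12, of ZT16 and of ZT24, and young ZT0 replicates 1 and 3, ZT4 replicate 1, ZT8 replicates 2 and 3, ZT12 replicates 1 and 2, ZT16 replicate 3, ZT20 replicates 1 and 3 and ZT24 replicate 2.

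Jund (chromosome 8, 70698949-70700616, plus strand) is a Jun family gene that is expressed in resting cells too. Jund had 1113.8 to 2664.7 rescaled reads in aged libraries (median 1648.3), against 910 to 1945.7 in young libraries (median 1429.4). Its mean was 1699 ± 361 in aged mice and 1404 ± 297 in young mice (SD, n = 21 each). The log2 difference was 0.28 ± 0.07 (adjusted p = 0.00260), with the aged mean higher at 6 of 7 times and the ranges overlapping.

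Egr1 (chromosome 18, 34859823-34864984, plus strand) had a higher aged mean at 7 of 7 times, with no single time past the adjusted threshold (adjusted p = 0.141 at the lowest). At ZT0 Egr1 had 603, 941 and 677 rescaled reads in aged libraries, against 337, 586 and 507 in young ones. Its values at ZT4 were 968, 1196 and 1123 in aged libraries, against 949, 922 and 768 in young ones. At these times every aged library was above every young one. At ZT8 Egr1 had 1310.1, 787 and 1104 in aged libraries, against 486, 793 and 605 in young ones. Values at ZT12 were 526, 678 and 951 in aged libraries, against 886, 511 and 542 in young ones, and the groups overlapped. At ZT16 Egr1 had 370, 975 and 904 in aged libraries, against 385, 337 and 593 in young ones, so that 1 aged library lay among the young. Values at ZT20 were 1113, 896 and 575 in aged libraries, against 702, 639 and 647 in young ones. At ZT24 Egr1 had 548, 814 and 1104 in aged libraries, against 807, 321 and 270 in young ones. From ZT8 on the groups overlapped at each time, through 1 library or more. Over the day the mean was 865 ± 253 in aged mice and 600 ± 204 in young mice (SD, n = 21 each), a log2 difference of 0.55 ± 0.12 (adjusted p = 8.19e-04).

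Atf3 (chromosome 1, 191170296-191218039, minus strand) encodes a leucine zipper factor of the ATF family that is induced by stress and represses many inflammatory genes in macrophages. Atf3 had 88.8 to 243 rescaled reads in aged libraries (median 143), against 117 to 259 in young libraries (median 169). Its mean was 150 ± 39.8 in aged mice and 177 ± 37.8 in young mice (SD, n = 21 each), a log2 difference of -0.26 ± 0.09 (adjusted p = 0.0385). The groups overlapped, and the aged mean was lower at 5 of 7 times. Its clearest time was ZT12, with 113, 107 and 168 rescaled reads in aged libraries, all below the 203, 219 and 206 in young libraries, although the single-time test did not pass after adjustment (log2 difference -0.72 ± 0.24, adjusted p = 0.137). The call over the day ended on leaving out any 1 of 20 libraries, with adjusted p of 0.0501 to 0.0746: in aged mice replicates 1 and 3 of ZT0 and of ZT4, replicate 2 of ZT8, replicates 1 and 2 of ZT12 and of ZT24, replicate 3 of ZT16 and replicate 1 of ZT20, and in young mice ZT0 replicate 3, ZT4 replicate 3, ZT8 replicate 3, ZT12 replicate 2, ZT16 replicate 2, ZT20 replicates 2 and 3 and ZT24 replicates 2 and 3.

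The calls of Jun, Jund and Egr1 held with each of the 42 libraries left out in turn. Since B and T cell markers moved with age, the level was also fitted with 3 covariates, the mean log2 levels of the markers of B cells, T cells and mast cells. Over all genes 1442 were called in that fit, against 2865 without the covariates. Egr1 then had a log2 difference of 0.64 (adjusted p = 0.0170), Junb of 0.43 (adjusted p = 3.16e-04) and Jun of 0.39 (adjusted p = 0.0355). Ier3, which missed the threshold otherwise, had 0.36 (adjusted p = 0.0293). Jund, at 0.23 (adjusted p = 0.184), and Atf3, at -0.14 (adjusted p = 0.616), were not called in that fit. The fit gave each score the same slope in both ages. Against the B cell score, Ier3 had r = -0.76 in aged and -0.11 in young libraries, and Junb -0.74 and -0.19. What the shared slope did to the fitted age differences was not tested.

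Fos (chromosome 12, 85473890-85477273, plus strand) is the founding member of the Fos family and needs a Jun partner to bind DNA. Fos averaged 153 ± 59.2 rescaled reads in aged mice and 179 ± 80.5 in young mice (SD, n = 21 each), with the same median of 161 in both. The log2 difference of -0.18 ± 0.14 did not pass the test (adjusted p = 0.374). Fosb (chromosome 7, 19302696-19310051, minus strand), its close relative, was the lowest of the 10 genes in reads, with 6 to 62 reads a library, and had 29.3 ± 20.6 rescaled reads in aged mice and 26.8 ± 11.7 in young mice (SD, n = 21 each; log2 difference -0.06 ± 0.22, adjusted p = 0.874).

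Nr4a1 (chromosome 15, 101254269-101274795, plus strand), an orphan nuclear receptor that limits inflammatory gene expression in macrophages, averaged 147 ± 43.9 rescaled reads in aged mice and 128 ± 31.6 in young mice (SD, n = 21 each; log2 difference 0.17 ± 0.10, adjusted p = 0.259). Ier2 (chromosome 8, 84661331-84662852, minus strand), a nuclear protein induced with FOS, had 780 ± 104 in aged mice and 788 ± 152 in young mice (log2 difference -0.00 ± 0.07, adjusted p = 0.981). Ier3 (chromosome 17, 35821684-35822923, plus strand), which acts on cell survival and ERK signalling, had 875 ± 250 in aged mice and 832 ± 145 in young mice (log2 difference 0.05 ± 0.09, adjusted p = 0.778).

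**Figure D2:**
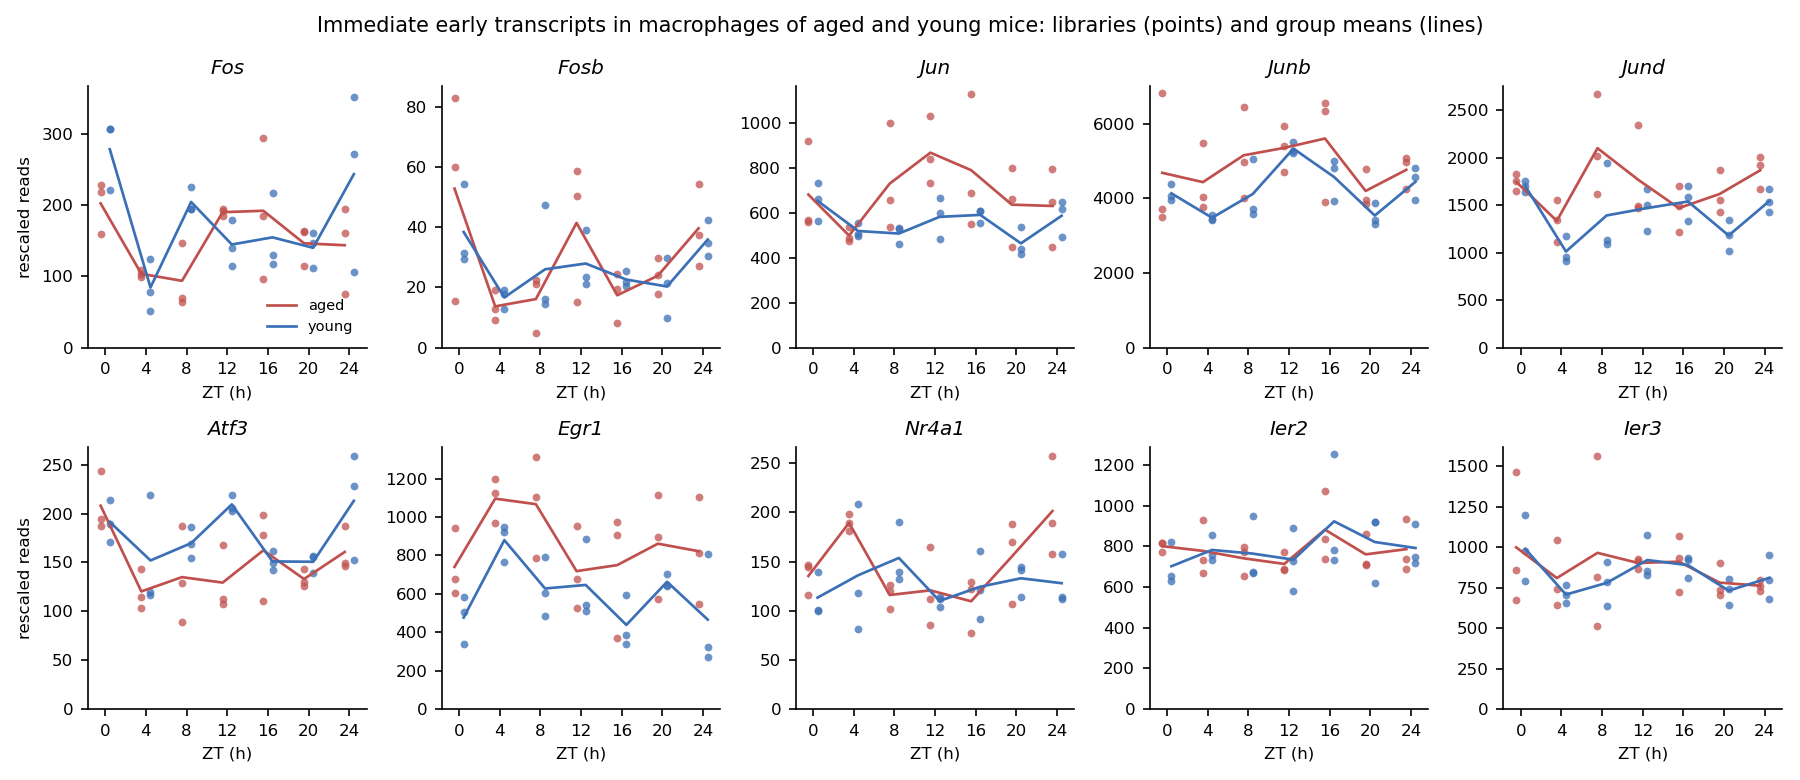
Rescaled reads of the 10 genes (vertical axes, each from 0) at each zeitgeber time in hours (horizontal axes); points are libraries, 3 a group, and lines join the group means of aged (red) and young (blue) mice. The young Junb libraries of ZT12, at 5214.5 to 5519.9, stand above every other young library, and the aged Fos libraries of ZT8, at 64.6 to 147, lie below the young ones of that time, at 194 to 225.

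Tested at single times, 1 of the 70 gene and time combinations passed, Jund at ZT8, where 4.01% of all genes were called. At the other times 0.793% to 2.09% of all genes were called. Jund had 2665, 1616 and 2013 rescaled reads there in aged libraries, against 1946, 1092 and 1133 in young ones. A single young library overlapped with the aged ones. The log2 difference was 0.62 ± 0.19 (adjusted p = 0.0489). The call ended when any 1 of 27 libraries was left out, with adjusted p of up to 0.308: all aged libraries of ZT0, aged ZT4 replicate 1, ZT8 replicates 1 and 3, ZT20 replicates 2 and 3 and ZT24 replicate 2, and all young libraries of ZT0, ZT12, ZT16, ZT20 and ZT24, young ZT4 replicate 1 and ZT8 replicates 2 and 3. With cell type scores as covariates it was 0.55 (adjusted p = 0.237).

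Fos at ZT8 had 69.5, 64.6 and 147 rescaled reads in aged libraries, against 194, 194 and 225 in young ones. The groups did not overlap, the log2 difference was -1.22 ± 0.37, and the adjusted p of 0.0516 was over the threshold. At the next time, ZT12, the order of the libraries was the other way round. Fos had 194, 192 and 184 in aged libraries, all above the 140, 115 and 179 in young ones. The Fos difference at ZT12 did not pass the test (limma log2 difference 0.41 ± 0.37, adjusted p = 0.775). At ZT8 Jun had 997, 535 and 657 rescaled reads in aged libraries, against 533, 526 and 463 in young ones, and the groups did not overlap. Jun at ZT12 had 731, 841 and 1029.6 in aged libraries, against 481, 598 and 666 in young ones, also without overlap. Neither Jun difference passed adjustment (0.48 ± 0.23, adjusted p = 0.275 at ZT8, and 0.57 ± 0.23, adjusted p = 0.237 at ZT12). Counted over the 7 times, aged and young libraries did not overlap in 10 of 70 gene and time combinations, 7 with aged above and 3 with aged below, while 17.3% of all such combinations over the genes tested did not overlap (8.82% above and 8.46% below). The share in the 10 genes was thus not above that in all genes.

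Around the day, young macrophages showed differences among times in Fos, Junb and Jund, none of which followed a smooth 24 h curve closely enough to be called. In the F-test over 7 time levels on the deposited values, 3 of 10 genes passed in young mice, against 2.91% of all genes, and 6 of 10 had an unadjusted p under 0.05, as did 15.0% of all genes. In aged mice 0 of 10 passed, against 0.266% of all genes, with 3 of 10 at an unadjusted p under 0.05, as were 9.08% of all genes. edgeR and DESeq2 gave 3 genes in young mice and 0 in aged mice as well. That does not show that the ages differ in time course: in a test of age by time with 7 levels, 0 of 10 passed, against 0.0248% of all genes, and 1 of 10 (Fos, limma adjusted p = 0.912) was under 0.05 before adjustment. That test was run with limma only.

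Fos in young mice was highest at ZT0, with 221, 307 and 307 rescaled reads, and lowest at ZT4, with 125, 50.8 and 77.4. The group means were 278 ± 49.9 and 84.5 ± 37.8 (SD, n = 3 each), a ratio of 3.29 without overlap. In order of their means, the other young times were ZT20 at 140, ZT12 at 145, ZT16 at 155, ZT8 at 204 and ZT24 at 243. The values at ZT12, ZT16 and ZT20 lay within each other's spread, and ZT24, with 106, 272 and 352, spanned nearly the whole range. The adjusted p over times was 0.0131, and without young ZT4 replicate 2 it was 0.0774. Aged Fos had 228, 160 and 219 at ZT0 and 98.5, 109 and 103 at ZT4, again without overlap, and its lowest mean was at ZT8 (93.7 ± 46.1; adjusted p over times = 0.455).

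Junb in young mice peaked at ZT12, with 5254.6, 5214.5 and 5519.9 rescaled reads, all above every other young library. Young ZT4 had 3423, 3559 and 3452 and young ZT20 had 3303, 3880 and 3429, the lowest means of the 7 times. The adjusted p over times was 0.00935. In aged mice the highest mean was at ZT16 (5601 ± 1469.8) and the lowest at ZT20 (4196 ± 505), and the adjusted p was 0.878. The SD of the aged ZT16 group exceeded that difference.

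Jund in young mice was lowest at ZT4, with 948, 1174 and 910 rescaled reads, and highest at ZT0, with 1757, 1703 and 1638, a ratio of means of 1.68 (adjusted p over times = 0.0308, and 0.0658 with scaling to the library total). The call ended without any 1 of 9 young libraries, with adjusted p of 0.0505 to 0.0802: the 3 of ZT0, ZT4 replicates 1 and 3, ZT12 replicate 2, ZT16 replicate 2 and ZT20 replicates 1 and 2. In aged mice ZT4 was also the lowest time, with 1338, 1114 and 1549, and ZT8 the highest, with a ratio of 1.57 (adjusted p = 0.540).

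Egr1 in young mice did not pass over the 7 times (adjusted p = 0.0818), and its call turned on 2 libraries. Without young ZT24 replicate 1, at 807 rescaled reads against 321 and 270 in the other ZT24 libraries, the adjusted p was 0.00114. Without young ZT16 replicate 3 it was 0.0426. By mean, ZT4 was the highest time of Egr1 in both ages, at 1095.9 in aged mice and 880 in young mice. Aged ZT8 was close to aged ZT4, at 1067.2 ± 263 against 1095.9 ± 117 (SD, n = 3 each). Egr1 in aged mice did not pass over the 7 times either (limma F-test, adjusted p = 0.758). Fos and Jund were at or near their lowest means at ZT4.

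As a 24 h cosine, 0 of 10 genes passed in aged mice, against 0.308% of all genes, and 0 of 10 in young mice, against 3.62%. Before adjustment 1 gene was under 0.05 in aged mice, Nr4a1, with a fitted peak at ZT1.38, a fold of 1.64 from peak to trough and a limma adjusted p of 0.350. In young mice it was Junb, with a fitted peak at ZT13.3, a fold of 1.24 and a limma adjusted p of 0.215. The aged Nr4a1 means were highest at ZT24, with 189, 158 and 257 rescaled reads, and lowest at ZT16, with 129, 122 and 77.8. No difference in rhythm between ages was called by limma among the 12109 genes tested, with 494 genes and 0 of the 10 under 0.05 before adjustment. Other settings called a few genes, 7 with a pseudocount of 5, 5 with upper quartile scaling, 4 without ZT0, 4 with edgeR and 7 with DESeq2. Of the 10 genes, edgeR and DESeq2 called 0 for rhythm in either age and 0 for the difference. ZT24 set against ZT0, the same hour a day apart, gave 0 of 10 in either age, with 0 at an unadjusted p under 0.05 and 0 by edgeR and DESeq2.

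Libraries of a group differed widely in some of these genes. The spread was measured as the mean absolute deviation of a library from its group mean on the log2 scale. Each deviation was first multiplied by the square root of n/(n-1), where n is the number of libraries in the group. It was set beside that of genes of like level, 1001 for most genes and 742 for Junb. Egr1 had a spread of 0.391 in aged mice, larger than in 97.8% of genes of like level, and of 0.355 in young mice, larger than in 99.6%. Fos had 0.372 in aged mice (percentile 88.3) and 0.386 in young mice (percentile 97.6). Egr1 was thus among the most variable genes of its level in both ages.

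Jun and Junb had a larger spread in aged than in young libraries, though the difference did not pass the test. Jun had 0.331 in aged mice, where the median gene of like level had 0.167, and 0.145 in young mice, where that median was 0.138. Junb had 0.269 in aged mice, against a median of 0.147, and 0.117 in young mice, against 0.109. Ier2 had the opposite order, at 0.159 in aged mice (percentile 49.1) and 0.242 in young mice (percentile 97.1). Over all genes the median spread was 0.249 in aged mice and 0.216 in young mice, and it was larger in aged mice for 66.0% of genes. In a limma test of 7 group values against 7, 0 of 10 genes passed, against 0.00826% of all genes, and 2 of 10, Jun and Junb, were under 0.05 before adjustment, as were 8.42% of all genes. Their adjusted p in limma were 0.441 and 0.513. With each library's own deviation as a value, the form first planned, 0 of 10 passed as well.

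**Figure D3:**
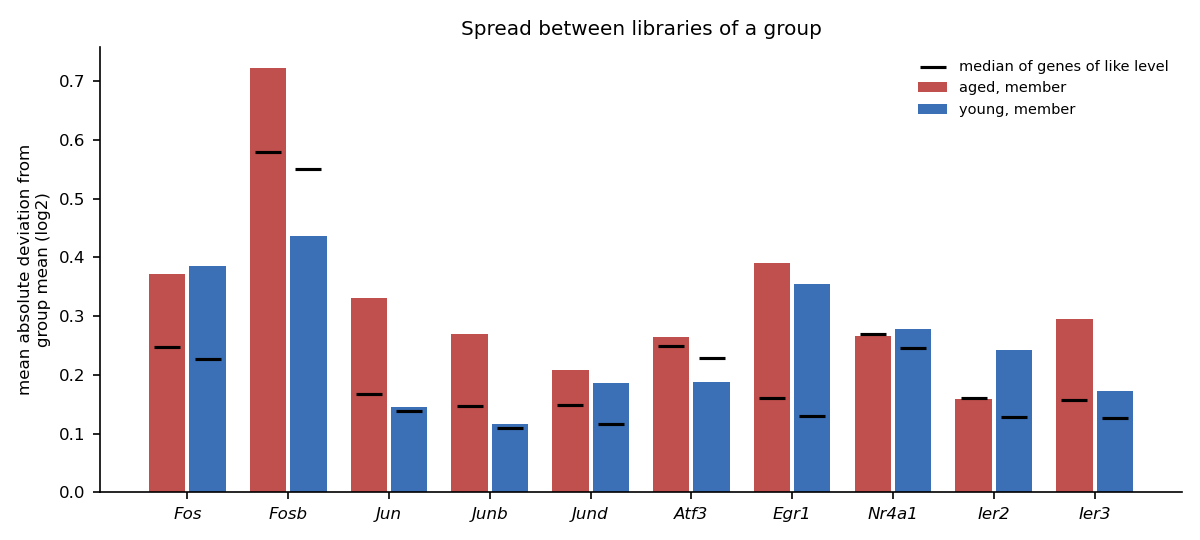
Mean absolute deviation of libraries from their group mean, scaled for group size as in the text (log2, vertical axis from 0). Bars are each gene in aged (red) and young (blue) mice, and black marks are the median of genes of like level in the same age. Jun and Junb stand above their marks in aged mice (0.331 and 0.269) and near them in young mice (0.145 and 0.117), and Egr1 stands above in both.

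The 10 genes did not move as a block from library to library. Over the 45 pairs, the Pearson correlation of deviations from group means had a median of 0.11 in the 21 aged libraries (-0.52 to 0.84, 7 pairs over 0.5) and of -0.04 in the 21 young libraries (-0.72 to 0.57, 2 pairs over 0.5). These are descriptions over libraries that share reads and scaling, with no test. For scale, the 5th and 95th percentiles of the correlations of Junb with the other 12108 genes were -0.55 and 0.58 in aged libraries and -0.43 and 0.47 in young ones.

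Junb and Ier3 were the closest pair in aged libraries, with r = 0.84 (Spearman's rho 0.90, same sign in 18 of 21 libraries) and r = 0.81 without the 2 libraries farthest in Junb. In young libraries r was 0.50 (rho 0.48, same sign in 11 of 21). Egr1 and Nr4a1 had r = 0.42 (rho 0.54, same sign in 16 of 21) in aged libraries and r = 0.57 (rho 0.59, 17 of 21) in young ones. The 95th percentile of the correlations of Egr1 with all genes was 0.45 in aged libraries and 0.47 in young ones, so the aged value lay within the usual range. Jun and Jund had r = 0.51 in aged libraries and 0.47 in young ones, beside 95th percentiles for Jun of 0.53 in aged libraries and 0.45 in young ones. Jun and Nr4a1 had r = 0.70 (rho 0.70) in aged libraries and -0.41 (rho -0.47) in young ones, and Jun and Egr1 had 0.07 (rho 0.16) in aged libraries and -0.72 (rho -0.68) in young ones. Fos and Fosb, the relatives, had 0.03 in aged libraries and 0.11 in young ones. Fos and Egr1 had -0.35 (rho -0.32) in aged libraries and -0.48 (rho -0.27) in young ones. The young r became -0.04 without the 2 libraries farthest in Fos. The 5th percentiles of correlations with all genes were -0.43 in either age for Fos. Those of Egr1 were -0.46 in aged libraries and -0.49 in young ones, so the aged value lay within the usual range.

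**Figure D4:**
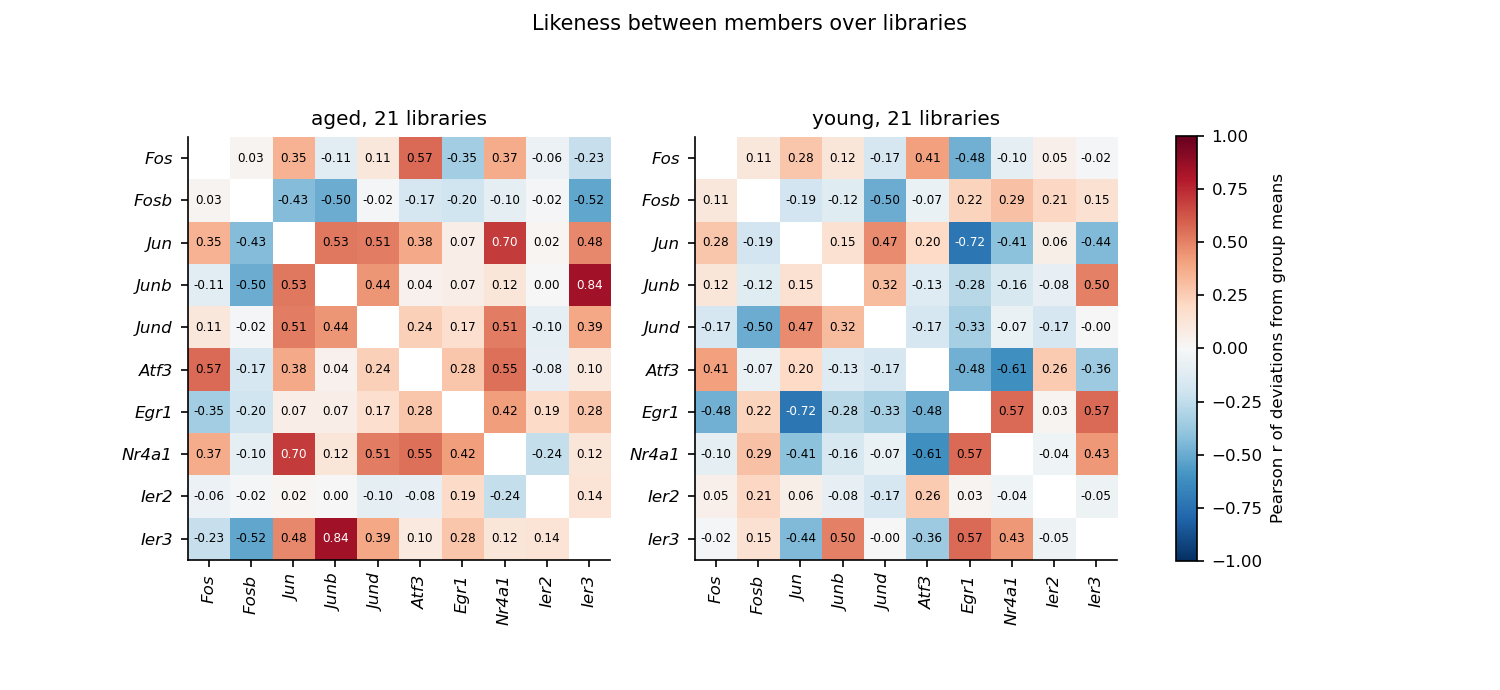
Pearson correlation of deviations from group means between each pair of the 10 genes over the 21 aged libraries (left) and the 21 young libraries (right). The aged panel is reddest at Junb with Ier3 (0.84) and Jun with Nr4a1 (0.70), while Junb and Ier3 each have 0.12 with Nr4a1. The young panel holds the lowest value, Jun with Egr1 at -0.72.

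Junb and Ier3 also moved with the B cell and macrophage scores in aged libraries. Against the B cell score, Ier3 had r = -0.76 (rho -0.67, -0.69 without the 2 libraries farthest in the score) in aged libraries and -0.11 in young ones, and Junb had -0.74 (rho -0.70, -0.67 without these) in aged libraries and -0.19 in young ones. Against the macrophage score Ier3 had 0.73 in aged libraries and -0.13 in young ones, and Junb 0.55 in aged libraries and 0.14 in young ones. With the T cell score Ier3 had -0.18 in aged libraries and 0.02 in young ones, and Junb 0.03 and 0.09. With the mast cell score Ier3 had 0.02 in aged libraries and -0.40 in young ones, and Junb 0.11 and 0.07. With the neutrophil score Ier3 had 0.45 in aged libraries and -0.26 in young ones, and Junb 0.51 and -0.59. Aged ZT0 replicate 2 and ZT8 replicate 1, with B cell scores 0.82 and 0.47 (log2) below their group means, had Ier3 at 1464.6 and 1562.5 rescaled reads, above the other libraries of their groups, at 676, 856, 515 and 816. Junb was the highest of its group in both as well, at 6831 and 6455.5. Jun followed the number of reads in genes in aged libraries (r = 0.54, and 0.09 in young ones), and Fosb went against it (r = -0.56 in aged libraries and -0.07 in young ones). Atf3 followed it in young libraries (r = 0.67, and -0.07 in aged ones). The part of cell makeup and of depth in these correlations was not tested.

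**Figure D5:**
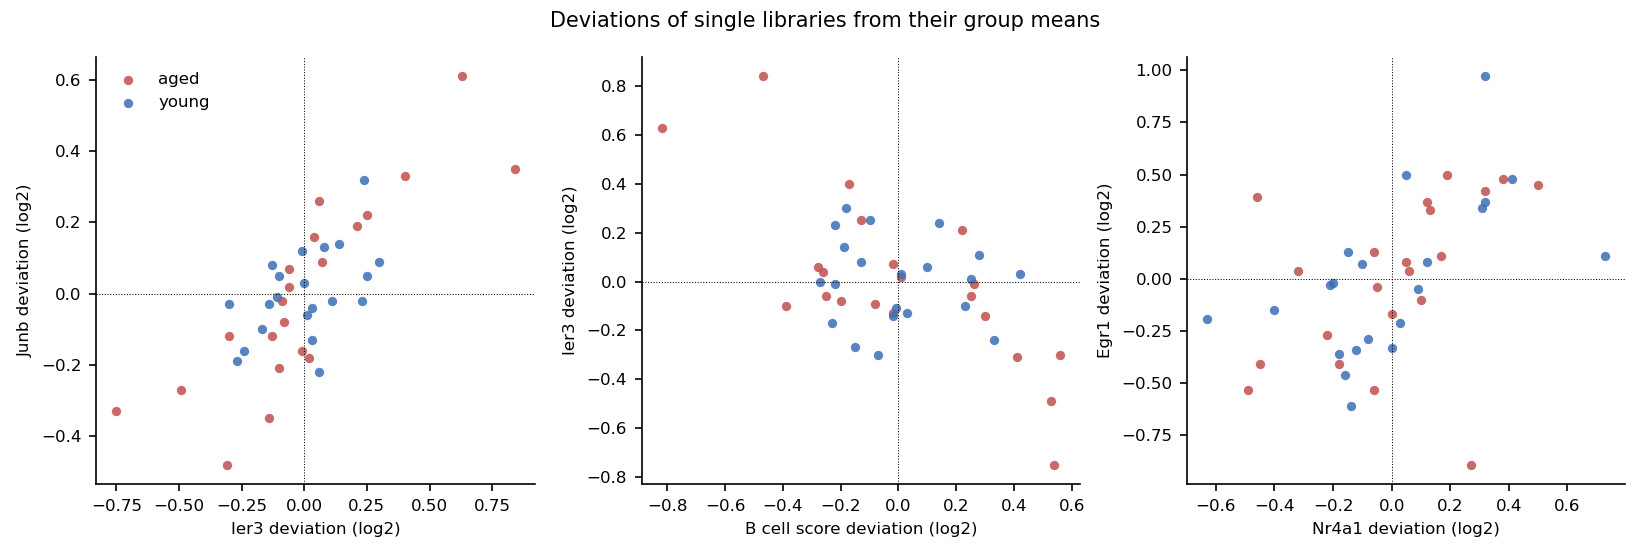
Deviations of single libraries from their group means (log2), with Junb against Ier3 (left), Ier3 against the B cell score (middle) and Egr1 against Nr4a1 (right), aged libraries in red and young in blue. Aged libraries lie along a line in the left panel (r = 0.84) and along a falling line in the middle one (r = -0.76), where young libraries show none (r = -0.11).

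Of 10572 other genes ranked by their likeness to the mean standardized deviation of the 10 genes in both ages, the nearest were Trem1 (r = 0.66 in aged libraries and 0.63 in young ones), Ppt2 (0.70 in aged and 0.59 in young), Mrpl14 (0.58 in aged and 0.71 in young), Kat2a (0.67 in aged and 0.57 in young), Tubb3 (0.70 in aged and 0.57 in young) and Usp46 (0.57 in aged and 0.63 in young), each over 21 libraries an age. None of them was in the lists of related genes. They are the top of a long ranking, with no test. With the mean, which holds each gene's own value, Nr4a1 had r = 0.74 in aged libraries and 0.31 in young ones, and Jun 0.77 in aged libraries and 0.14 in young ones. Ier3 had 0.56 in aged libraries and 0.61 in young ones. Fosb had -0.20 in aged libraries and 0.38 in young ones, Egr1 0.41 and 0.04, and Atf3 0.62 and 0.01. The mean thus did not stand for all 10 genes in each age.

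Other genes of the pathway went both ways with age, where 12.0% of all genes were called higher and 11.7% lower. Of 25 further immediate early genes tested, 6 were higher and 3 lower in aged mice, with a median log2 difference of 0.05, and 5 of 30 listed ones were too low to test. The lowest p-values were those of Csrnp1, a nuclear factor named for its cysteine and serine rich region (log2 difference 0.71 ± 0.08, adjusted p = 1.84e-08), Dusp2, a phosphatase of MAP kinases (0.91 ± 0.16, adjusted p = 3.92e-05), Ppp1r15a, which restarts translation after stress (0.35 ± 0.08, adjusted p = 8.81e-04), and Gadd45b, a stress sensor (2.00-fold, adjusted p = 0.00108). Klf2 and Socs3 were also higher. Close relatives of the 10 genes called lower were Egr2, with a log2 difference of -0.58 ± 0.15 (adjusted p = 0.00273), Nr4a2, with -0.41 ± 0.16 (adjusted p = 0.0491) and Fosl2, with -0.18 ± 0.06 (adjusted p = 0.0134). Egr1 and Egr2 thus differed with age in opposite directions, and other relatives were not called, Nr4a3 at 0.59 ± 0.40 (adjusted p = 0.318), Ier5 at 0.04 and Ier5l at 0.05.

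Of 19 leucine zipper partners and relatives, 2 were higher and 4 lower, with a median of 0.00, and the 6 calls are near the 23.7% of all genes called either way. Batf3, a partner of the Jun proteins in dendritic cells, had -0.85 ± 0.12 (adjusted p = 1.14e-06), beside the lower dendritic cell markers. Bach2, a repressor abundant in B cells, had 0.51 ± 0.09 (adjusted p = 6.59e-05) beside the higher B cell markers, and the part of cell makeup in either was not tested. Maf had -0.32 ± 0.08 (adjusted p = 0.00161) and Nfil3 0.34 ± 0.11 (adjusted p = 0.0162).

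Upstream, 2 of 20 kinases and serum response factors were higher and 4 lower, with a median of 0.01, again near the 23.7% of all genes. Elk4, a partner of the serum response factor, had 0.27 ± 0.05 (adjusted p = 2.16e-04) and Mapk9, a JUN kinase, 0.26 ± 0.07 (adjusted p = 0.00294). Rps6ka3, a kinase below ERK, had -0.24 ± 0.05 (adjusted p = 7.53e-04) and Map2k3, a kinase above p38, -0.19 ± 0.05 (adjusted p = 0.00385). Of 13 feedback inhibitors tested, 4 were higher and 2 lower, with a median of 0.06, against 12.0% and 11.7% of all genes. Dusp6, the cytosolic ERK phosphatase, had -0.43 ± 0.07 (adjusted p = 2.76e-06), while Dusp10, which acts on JNK and p38, had 0.82 ± 0.14 (adjusted p = 1.80e-05) and Zfp36l1, a messenger RNA decay factor, 0.25 ± 0.05 (adjusted p = 1.94e-04). Dusp2 belongs to this list too. Nab2, a repressor that binds EGR1, had 0.29 ± 0.08 (adjusted p = 0.00750).

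Rhythm was called for 3.62% of all genes in young mice and 0.308% in aged mice. Of the further immediate early genes 1 of 24 was called rhythmic in young mice, Cebpb (1.52-fold, fitted peak at ZT19.6, adjusted p = 0.00917), of the leucine zipper relatives 3 of 19 (Nfil3, Xbp1 and Mafg), of the upstream genes 2 of 21 and of the feedback inhibitors 0 of 13. Inducible heat shock genes, a further stress list, gave 5 of 7 in young mice and 2 of 8 in aged mice, against the 0 of 10 here. In aged mice 1 of 13 feedback inhibitors was called, Dusp6 (1.68-fold, fitted peak at ZT21.8, adjusted p = 0.0267), and 0 genes of the first 3 lists. The heat shock list also held 0 genes higher and 3 of 8 lower in aged mice, with a median of -0.13.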

How the data were processed

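Macrophage RNA of 42 libraries, 3 for each of 7 times in aged and in young mice, was measured by QuantSeq sequencing. The authors deposited 1 table for each age of normalized signal, in which per the values reads were divided by a size factor (0.592 to 1.84 in aged and 0.769 to 1.43 in young libraries). STAR, DESeq2 and the mm10 genome are named in the submitters' processing notes, with no version given in the sources used here. Whole reads were recovered by dividing by the smallest value of a library, and 100.0% of values were whole within 0.001. For comparisons across ages all 42 libraries were put on a common scale from these reads, with median-of-ratios size factors ("rescaled reads"). Tests within an age used the deposited values.

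A mean of 10 or more was required of a gene, which left 12109 across ages, 12113 in young and 12016 in aged mice. Tests were run with limma-trend (limma 3.58.1, R 4.3.3) on log2(value + 1), so that fold changes of low genes are understated, with Benjamini-Hochberg adjustment over all genes kept and a threshold of 0.05. edgeR 4.0.16 and DESeq2 1.42.0 on the recovered reads were alternatives, as were other pseudocounts, filters and scalings, leaving out libraries or times, array weights, a replicate block and cell type covariates. The scripts were tested on simulated data. There the planned test of spread called too many unchanged genes, so the deviation was averaged within a group, and the planned form became an alternative. The test of age by time with 7 levels was added after seeing the data.

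The 10 genes and the lists were chosen with earlier results of these data known. Named are the 10 genes, the 6 genes most like their mean deviation, and up to 4 genes of lowest p of each list. Klf2, Socs3, Egr2, Nr4a2, Fosl2, Nab2, Nr4a3, Ier5, Ier5l and the rhythmic genes of the lists were chosen after their values were seen. Positions are from GENCODE M21 (GRCm38). Counting error is smallest for Junb (1901 to 10870 reads a library) and largest for Fosb (6 to 62). The labels give no batch and no tissue of origin of the macrophages.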

Additional observations from a re-analysis of the deposited data

How the results depend on the processing

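Counts of the 10 genes called for level over the day were 5 under most alternatives and 3 with no filter on low values, without the pair of aged libraries that deviated most (ZT8 replicate 1 and ZT16 replicate 3), without ZT24 and with array weights. In each of these 4 Junb and Atf3 were lost; total scaling also took Junb (adjusted p = 0.0523). Leaving out 1 library gave 3 to 5. At single times the count of 1 became 0 with no filter, with edgeR and without the 2 farthest libraries. It became 2 with DESeq2, 1 higher and 1 lower in aged mice. With cell type covariates it was also 2, both higher, and neither was Jund at ZT8. Leaving out 1 library gave 0 to 2. A count of 1 there was not always the same call: without young ZT4 replicate 1 it was a gene lower in aged mice. The count of 3 over times in young mice became 0 with no filter (Fos 0.0972, Junb 0.0602, Jund 0.158, adjusted p), 2 with total scaling (Jund 0.0658), and 2 to 4 on leaving out 1 library. The causes were not tested. Counts for rhythm, ZT24 against ZT0, spread and age by time stayed at 0 in every alternative run. Values near 0 changed sign: Fosb to 0.04 with array weights, Ier2 to 0.04 with covariates and Ier3 to -0.03 without the 2 farthest libraries, and on leaving out 1 library Fosb ranged from -0.13 to 0.04, Ier2 from -0.03 to 0.03 and Ier3 from -0.01 to 0.10. Scaling to the library total gave 1278 genes higher and 1645 lower, against 1448 and 1417. Replicate numbers did not pair the libraries: deviations of same-numbered libraries correlated at -0.26 to 0.19 in aged mice (6 of 63 pairs over 0.1) and at -0.08 to 0.12 in young mice (1 of 63). With the replicate block the counts were again 5 for level, 1 at single times, 3 over times in young mice and 0 for the other tests. Precision is limited most for Fosb, at 6 to 62 reads a library.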
